A study of Mus musculus with 23 samples.

Results

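The results concern 6 genes measured in mouse blood stem and progenitor cells: Lin28b, Hmga2, Igf2bp1, Igf2bp2, Igf2bp3 and Arid3a. They are the genes usually grouped as the fetal Lin28b program of blood, and they were taken by symbol, 6 of the 32285 genes listed in each of the 11 gene-expression matrices. In fetal blood stem cells the RNA-binding protein Lin28b blocks the maturation of let-7 microRNAs. Let-7 in turn represses a set of transcripts that include Hmga2, a chromatin architectural protein linked to stem cell self-renewal, the Igf2bp RNA-binding proteins, and Arid3a, a DNA-binding protein tied to fetal-type B cell development. Lin28b falls and let-7 activity rises around birth, and the fetal program is largely off in adult marrow. Polycomb repressive complex PRC2 places the repressive histone mark H3K27me3, with Ezh2 as its catalytic subunit and Jarid2 as an accessory subunit.

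All mice were Mx1-Cre, a Cre recombinase driven by an interferon-inducible promoter and therefore not restricted to blood, the Controls included per the labels. Ezh2 KO mice carried floxed Ezh2 and Jarid2 KO mice floxed Jarid2; the labels name no other allele of the Controls. Cells were sorted from bone marrow as c-Kit-positive, Sca1-positive and lineage-negative (KSL), a gate that holds stem cells and multipotent progenitors. The baseline groups came from untransplanted mice 2 months old and held 2 libraries per genotype (Control, Ezh2 KO, Jarid2 KO), replicate 1 male and replicate 2 female. Titles of some baseline knockout libraries also carry the word Control, and the genotype field decided the group. The transplant groups held 1 Control, 2 Ezh2 KO and 2 Jarid2 KO libraries of donor CD45.2 KSL cells, sorted 18 weeks after 500000 donor marrow cells had been given with 500000 CD45.1 competitor cells to lethally irradiated recipients. The labels do not say how many animals stand behind a library, so p-values measure only the spread between these libraries. The labels give no treatment of the mice beside Mx1-Cre, and whether and when the deletion was induced, in baseline mice or in donors, is not given in the sources used here.

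Let-7 microRNAs are not measured in these libraries, and their mature sequences are shown because they define which transcripts the program acts on. The mouse sequences below are from RefSeq (GRCm38.p6), with the seed, bases 2 to 8, in capitals. Of the 11 let-7 and miR-98 names in the table, 10 carry the seed GAGGUAG, which 11 of all 1679 mature mouse names share.
mmu-let-7a-5p: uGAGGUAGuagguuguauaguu
mmu-let-7g-5p: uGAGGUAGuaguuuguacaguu
mmu-miR-98-5p: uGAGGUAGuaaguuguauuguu
mmu-let-7j: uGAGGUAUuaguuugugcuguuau
The exception, let-7j, reads GAGGUAU at these bases. Lin28 proteins bind GGAG in the loop of let-7 precursors; GGAG lay between the mature arms in 8 of the 11 let-7 and miR-98 hairpins that have both arms listed (72.7%), against 52 of all 644 such mouse hairpins (8.08%).

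Hmga2, Igf2bp3 and Lin28b were the members with higher levels in Ezh2 KO than in Control in both experiments, and their promoter windows are shown with every CG in capitals. Each window runs from 250 bases before to 50 bases after a RefSeq start (GRCm38.p6), and all of these genes lie on the minus strand, so the sequence is printed 5′ to 3′ along the gene.
Hmga2, chr10:120476420-120476719: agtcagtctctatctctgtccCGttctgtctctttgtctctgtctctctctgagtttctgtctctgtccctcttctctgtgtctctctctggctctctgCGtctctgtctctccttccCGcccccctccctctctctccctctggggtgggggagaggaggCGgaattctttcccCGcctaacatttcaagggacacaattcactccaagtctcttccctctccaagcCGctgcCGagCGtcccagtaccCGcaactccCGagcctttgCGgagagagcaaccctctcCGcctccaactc
Igf2bp3, chr6:49214905-49215204: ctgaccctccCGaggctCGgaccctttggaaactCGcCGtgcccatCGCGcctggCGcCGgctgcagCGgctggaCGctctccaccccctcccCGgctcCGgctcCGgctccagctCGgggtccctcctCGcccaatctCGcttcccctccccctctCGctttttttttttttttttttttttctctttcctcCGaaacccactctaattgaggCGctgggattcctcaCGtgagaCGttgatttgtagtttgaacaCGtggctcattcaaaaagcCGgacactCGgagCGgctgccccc
Lin28b, chr10:45470152-45470451: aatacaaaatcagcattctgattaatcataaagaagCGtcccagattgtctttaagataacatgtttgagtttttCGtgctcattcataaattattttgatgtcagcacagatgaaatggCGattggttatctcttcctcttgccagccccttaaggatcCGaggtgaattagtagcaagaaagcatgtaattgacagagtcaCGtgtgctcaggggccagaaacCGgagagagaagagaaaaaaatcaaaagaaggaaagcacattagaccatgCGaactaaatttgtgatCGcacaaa
Among 32841 mouse windows of this kind the median was 7 CG. The Lin28b window lies inside the annotated gene (chr10:45376617-45486314), so it marks an internal start and not the outermost promoter. That of Igf2bp3 also lies inside its gene (chr6:49085218-49215469), but close to the 5′ boundary. Lin28b had 8 CG, a number reached by 48.7% of windows, Hmga2 had 12 (39.6%) and Igf2bp3 had 25 (18.4%). Igf2bp2, which had no call between genotypes, had 47 CG in chr16:22163250-22163549, a number reached by 1.44% of windows. Motifs were searched on both strands: the E box CACGTG occurred in the Lin28b and Igf2bp3 windows and in 7.15% of all, the GC box GGGCGG in the Hmga2 and Igf2bp2 windows and in 35.7% of all, and TATAAA in none of these 4 windows and in 13.6% of all. These matches are descriptions of the letters and not binding sites.

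Of 97066 deposited barcodes 73310 were kept, 6723 to 9208 per baseline and 4354 to 6149 per transplant library, with 83921210 to 126527222 and 67629053 to 111514122 unique molecular identifiers (UMIs) in all; pairs of libraries shared 4 to 31 barcodes. Barcodes over the mitochondrial limit were 2.82% to 5.82% at baseline. After transplantation they were 43.4% in Control, 36.6% and 37.4% in Jarid2 KO and 25.7% and 27.4% in Ezh2 KO, so this sign of cell quality moved with genotype in the transplant values below, and its part in them was not tested beyond the cell filters named there. Sex differed between the transplant groups: cells with Xist and no Y-linked UMI were 59.4% of the Control library, 48.3% and 49.9% of the Jarid2 KO libraries and at most 0.0511% of either Ezh2 KO library, so both transplant contrasts with Ezh2 KO also compare sexes. Values are UMI counts scaled to a common library total (CPM) over all kept cells of a library unless a state or gate is named, fold changes are log2 with their standard error (SE), and FDR is edgeR's quasi-likelihood test (two-sided) with Benjamini-Hochberg adjustment over all genes tested, called under 0.05. In such sums, fewer cells of a type and less RNA per cell cannot be told apart.

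The targeted genes were checked first. Ezh2 stood at 209 and 193 CPM in baseline Control, 163 and 148 for Ezh2 KO and 191 and 198 for Jarid2 KO, a difference between Ezh2 KO and Control of -0.33 that was not called (edgeR FDR 0.0599). After transplantation its level was 185 CPM in Control, 38.8 and 47.0 for Ezh2 KO and 171 and 185 for Jarid2 KO, and it fell by 2.19 for Ezh2 KO (edgeR FDR 0.000832). Jarid2 was not lower in Jarid2 KO: 159 and 150 CPM in baseline Control against 215 and 205, and 38.5 in transplant Control against 57.3 and 57.1, neither called (edgeR FDR 0.107 and 0.211). The reads sit at 3′ ends, the position of the deleted exons is not given in the sources used here, and a 3′ tag outside them does not check the deletion.

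Lin28b, the regulator at the head of the pathway, was rare everywhere and highest in Ezh2 KO in both experiments. At baseline it stood at 0.608 and 1.46 CPM in Control (51 and 143 UMIs), 2.22 and 3.33 for Ezh2 KO (281 and 380 UMIs) and 1.69 and 1.39 for Jarid2 KO (153 and 134 UMIs). Both Ezh2 KO libraries lay above all others, while Control and Jarid2 KO overlapped. The difference of 1.5 (SE 0.36) between Ezh2 KO and Control was not called (edgeR FDR 0.0880); DESeq2 called it (1.52, DESeq2 FDR 0.0063), as did edgeR without Jarid2 KO replicate 2 (1.55, edgeR FDR 0.0437). After transplantation the Control library held 2 Lin28b UMIs (0.0296 CPM), the Ezh2 KO libraries 60 and 49 (0.538 and 0.608 CPM) and the Jarid2 KO libraries none. Pooled UMIs gave a ratio of Ezh2 KO to Control of 19.2 (exact 95% interval 5.18 to 160, counting error only), and Ezh2 KO was at least 33.7-fold higher than Jarid2 KO, against a floor of 3 UMIs over that group. Lin28b passed the filter on low counts after transplantation through the Ezh2 KO libraries alone, so it had to differ there, and its tests are given as values and not counted below. They were 4.13 (fitted, SE 0.67, edgeR FDR 0.0331) for Ezh2 KO against Control and edgeR FDR 0.00346 between the knockouts, and 0.00382 and 2.57e-05 with no filter on low counts. The first passed 0.05 no longer without Ezh2 KO replicate 1 (4.17, edgeR FDR 0.0617) or replicate 2 (4.07, edgeR FDR 0.0751), with the strict cell filter (3.80, edgeR FDR 0.0675) and in male cells alone (7.68, edgeR FDR 0.142, fitted against a Control with no Lin28b UMI and no bound).

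Hmga2, a classical let-7 target, rose in Ezh2 KO in both experiments and stood between Ezh2 KO and Control in Jarid2 KO. At baseline it stood at 36.7 and 44.2 CPM in Control, 101 and 111 for Ezh2 KO and 53.0 and 69.1 for Jarid2 KO. The 3 groups did not overlap. Means were 40.4 ± 5.27, 106 ± 7.03 and 61.0 ± 11.4 CPM (SD, n = 2 each). Ezh2 KO was higher than Control by 1.44 (SE 0.07, edgeR FDR 0.00999), and Jarid2 KO was lower than Ezh2 KO by a log2 difference of -0.83 (edgeR FDR 0.0151), a call lost without Jarid2 KO replicate 1 (-0.73, edgeR FDR 0.0645). Both calls were lost when the sex term, which is also the replicate block, was left out (1.44, edgeR FDR 0.0611, and -0.82, edgeR FDR 0.0955). The difference of 0.61 (SE 0.07) between Jarid2 KO and Control was not called by edgeR (FDR 0.117), and was by DESeq2 (DESeq2 FDR 2.73e-08), which called 1.38% of genes there and 7.38% for Ezh2 KO. After transplantation Hmga2 stood at 7.72 CPM in Control, 54.0 and 58.0 for Ezh2 KO and 18.97 and 20.0 for Jarid2 KO, again without overlap. It rose in Ezh2 KO by 2.78 (SE 0.11, edgeR FDR 0.000411) and in Jarid2 KO by 1.28 (SE 0.11, edgeR FDR 0.0155), and Jarid2 KO was lower than Ezh2 KO (-1.49, edgeR FDR 0.000326). Among male cells alone the Jarid2 KO difference was 0.98 and not called (edgeR FDR 0.111), while those of Ezh2 KO against Control (2.69, edgeR FDR 0.00174) and of Jarid2 KO against Ezh2 KO (-1.71, edgeR FDR 0.000506) were.

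**Figure D1:**
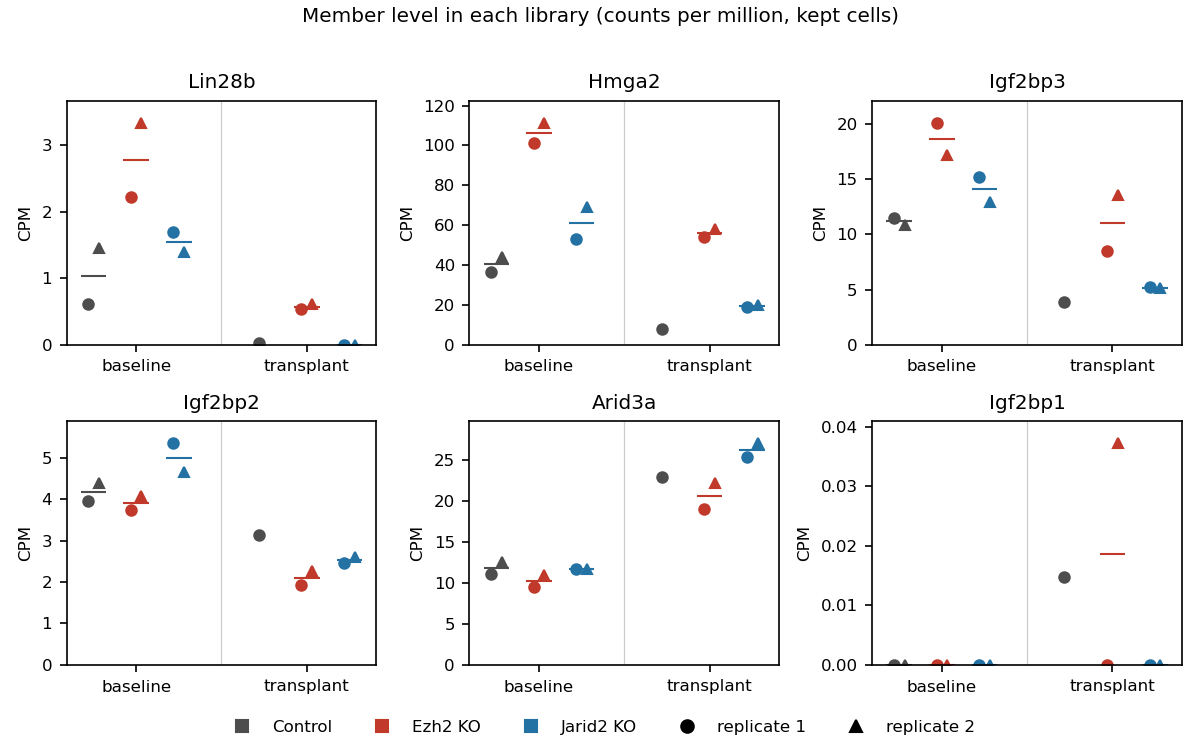
CPM of the 6 genes in each library (1 point each, lines at the group means), by genotype, at baseline and after transplantation. Hmga2 separates the 3 genotypes in both experiments (36.7 to 44.2, 53.0 to 69.1 and 101 to 111 CPM at baseline), and Arid3a does not at baseline.

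Igf2bp3, the Igf2bp member most associated with fetal cells, was higher in Ezh2 KO over all cells. Its levels were 11.5 and 10.9 CPM in baseline Control, 20.1 and 17.2 for Ezh2 KO and 15.2 and 13.0 for Jarid2 KO, and the Ezh2 KO libraries lay above the rest. Ezh2 KO was higher than Control by 0.78 (SE 0.07, edgeR FDR 0.0229), a call lost without Ezh2 KO replicate 1 (0.72, edgeR FDR 0.0626). The difference between Jarid2 KO and Ezh2 KO (-0.43, edgeR FDR 0.0409) was lost without any one of those 4 libraries (edgeR FDR 0.0539 to 0.232), and both were lost without the sex term (edgeR FDR 0.0881 and 0.162). B-like cells, a state described below, moved with it: they were 6.32% and 2.15% of cells in Control, 21.0% and 11.7% for Ezh2 KO and 2.83% and 3.14% for Jarid2 KO. These cells held 59.4% and 46.9% of all Igf2bp3 UMIs in Ezh2 KO, against 13.1% and 3.27% in Control. The 9 B markers, none at 0 in any baseline library, summed to 700.1 to 1645 CPM in Control, 1910 to 3381 for Ezh2 KO and 1298 to 1430 for Jarid2 KO. Outside B-like cells Igf2bp3 stood at 10.7 and 10.7 CPM in Control, 10.0 and 10.2 for Ezh2 KO and 14.5 and 12.2 for Jarid2 KO, and the difference between Ezh2 KO and Control was not called (-0.06, SE 0.09, edgeR FDR 0.787). The difference between Jarid2 KO and Ezh2 KO changed sign there, without a call (0.39, SE 0.09, edgeR FDR 0.127). As a log2 ratio of mean CPM plus 1 it was -0.38, and 0.02 when standardised to one mix of states. Hmga2 without B-like cells was higher in Ezh2 KO by 1.58 (edgeR FDR 0.0254; 0.317% of 18003 genes were called), and Lin28b by 1.20 without a call (edgeR FDR 0.229).

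After transplantation Igf2bp3 stood at 3.87 CPM in Control, 8.50 and 13.6 for Ezh2 KO and 5.24 and 5.13 for Jarid2 KO. It rose in Ezh2 KO by 1.42 (SE 0.27, edgeR FDR 0.0400) and was lower in Jarid2 KO than in Ezh2 KO (-1.05, edgeR FDR 0.0240); the former was lost among male cells alone (1.23, edgeR FDR 0.134) and with every deposited barcode kept (0.94, edgeR FDR 0.142), the latter was called in male cells (-1.01, edgeR FDR 0.0386) but not without Jarid2 KO replicate 2 (-0.96, edgeR FDR 0.0560) and with every barcode (-0.80, edgeR FDR 0.0694). The clusters there came from the 1 Control library and held no B-like one, so any B-like knockout cells were assigned to other states. The summed B markers were 134.6 CPM in Control, 586 to 738 for Ezh2 KO and 467 to 649 for Jarid2 KO.

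The other members did not follow this pattern. Igf2bp2 was low throughout, at 3.96 and 4.40 CPM in baseline Control, 3.74 and 4.08 for Ezh2 KO and 5.35 and 4.65 for Jarid2 KO, and at 3.13, 1.93 and 2.27, and 2.47 and 2.62 after transplantation. None of its contrasts was called; the lowest edgeR FDR was 0.0958, for transplant Ezh2 KO against Control (-0.67). Igf2bp1 had no UMI in any baseline library and 4 in all after transplantation (1 in Control, 3 for Ezh2 KO replicate 2). With 0 UMIs among 6723 to 9208 cells, up to 0.0326% to 0.0446% of cells with a UMI would have gone unseen. Arid3a stood between 9.48 and 12.6 CPM in all 6 baseline libraries without a call. After transplantation it stood at 22.9 CPM in Control, 19.1 and 22.2 for Ezh2 KO and 25.4 and 27.1 for Jarid2 KO. Its single call, Jarid2 KO over Ezh2 KO by 0.38 (edgeR FDR 0.0448; 4.37% of genes called higher), was lost without any one of these 4 libraries (0.31 to 0.46, edgeR FDR 0.0644 to 0.286).

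Read as counts, 5 members were tested at baseline. Hmga2 and Igf2bp3 were called higher in Ezh2 KO, where 2.81% of the 18177 genes tested were called higher. No member was called in Jarid2 KO against Control, where 0.0330% were. Hmga2 and Igf2bp3 were both lower in Jarid2 KO than in Ezh2 KO, where 4.42% were lower. Neither of these Igf2bp3 calls was found outside B-like cells. After transplantation 5 members again passed the filter, and Lin28b is left out of the counts for the reason above. Hmga2 and Igf2bp3 were called higher in Ezh2 KO (3.4% of 15758 genes), Hmga2 for Jarid2 KO (0.209%), and Hmga2 and Igf2bp3 were lower in Jarid2 KO than in Ezh2 KO (7.67%). The contrasts of a fit share the Control or Ezh2 KO libraries, so these counts are not independent of each other.

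A fit over all 11 libraries asked whether a contrast was of another size after transplantation. The Ezh2 KO against Control difference of Hmga2 was larger after transplantation by 1.34 (SE 0.13, edgeR FDR 0.00625), a call that 0.539% of 18938 genes received in that direction. This term rests on the lone transplant Control library, and its transplant contrast also compares sexes. Mean Ezh2 levels were 201 CPM in Control and 155 for Ezh2 KO at baseline, and 185 and 42.9 after transplantation. The part of sex and of the Ezh2 level in this term was not tested. The gap between the knockouts also widened for Hmga2 (-0.65, edgeR FDR 0.0198), with 2.85% of genes called in that direction. The Hmga2 widening was lost without any one of baseline Ezh2 KO replicate 2, baseline Jarid2 KO replicate 2 and either transplant Ezh2 KO library (-0.65 to -0.53, edgeR FDR 0.0609 to 0.0994). The Hmga2 terms were also lost without the sex term (1.35, edgeR FDR 0.0712, and -0.66, edgeR FDR 0.146). The Lin28b term between the knockouts (fitted -8.20, edgeR FDR 0.0191) rests on 2 libraries with no UMI, is no bound and is not read as a widening. For Lin28b and Igf2bp3, a difference between experiments in Ezh2 KO against Control was not called (2.65, edgeR FDR 0.389; 0.65, edgeR FDR 0.469). Levels themselves were not compared between experiments, whose counts came from different software versions.

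**Figure D2:**
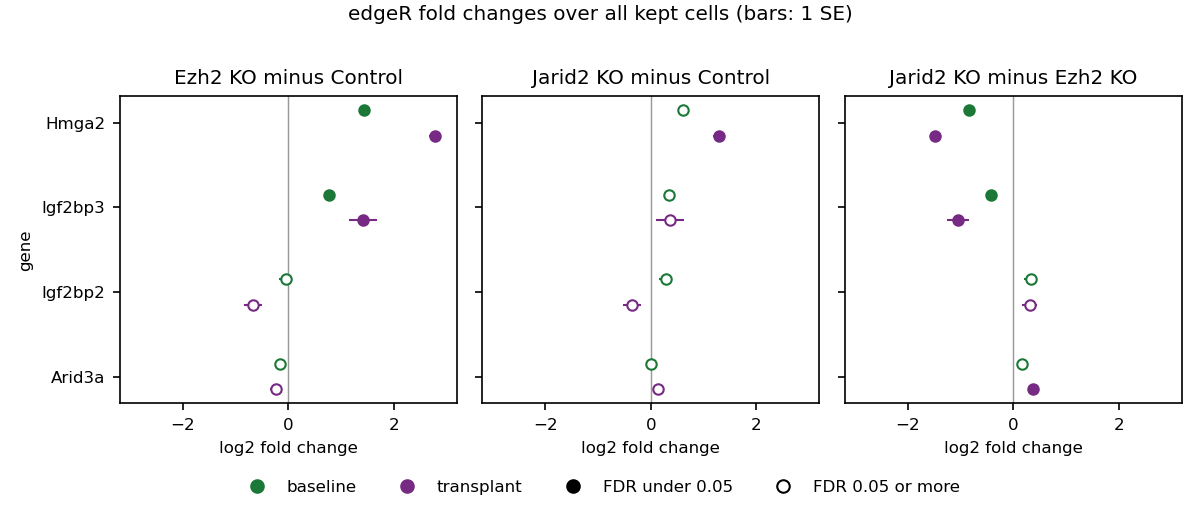
Log2 fold changes with SE by contrast and experiment for Hmga2, Igf2bp3, Igf2bp2 and Arid3a (Lin28b, with libraries at 0, and Igf2bp1, not tested, are not drawn); filled points pass an edgeR FDR of 0.05. Hmga2 for Ezh2 KO moves from 1.44 at baseline to 2.78 after transplantation, while Igf2bp2 and Arid3a lie between -0.67 and 0.38 in every contrast.

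Baseline cells also carried antibody counts, so the members could be read within surface gates. The gates take the same percentiles in every library, so surface levels themselves are not matched between genotypes. Cd48 RNA in the CD150 high CD48 low gate was 8.03 to 15.9 CPM in Ezh2 KO, 2.30 to 2.63 in Control and 1.58 to 1.71 in Jarid2 KO. Within each library, gates were set on percentiles of the antibody counts: CD150 high CD48 low (985 to 1232 cells, the phenotype of long-term stem cells), CD150 high CD48 high (133 to 561 cells), CD150 low CD48 high CD135 low (878 to 1269 cells) and CD150 low CD135 high (1977 to 2734 cells, lymphoid-leaning multipotent progenitors). The members divided between the ends of this range. Igf2bp2 was a stem-gate gene: 14.7 to 20.7 CPM in CD150 high CD48 low cells against 1.44 to 2.30 in CD150 low CD135 high cells, higher by 3.25 (SE 0.15, edgeR FDR 1.98e-12, library as a block). Lin28b was higher there by 2.27 (SE 0.44, edgeR FDR 0.000224), at 2.11 to 6.67 against 0.117 to 1.44 CPM, and Arid3a by 0.71 (edgeR FDR 1.26e-05). This contrast pools the genotypes. Hmga2 was lower in the stem gate (-0.83, edgeR FDR 0.000382), but its levels there and in CD150 low CD135 high cells lay near each other in Control (38.3 and 36.1 against 41.8 and 46.3 CPM) and far apart for Ezh2 KO (50.6 and 54.8 against 149 and 146 CPM). Igf2bp3 was not called (-0.20, edgeR FDR 0.669). Of 14573 genes, 53.2% differed between these gates and 25.8% were higher in the stem gate, so a call alone sets no member apart.

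The genotype differences were uneven across the gates. In CD150 low CD135 high cells Hmga2 stood at 41.8 and 46.3 CPM in Control, 149 and 146 for Ezh2 KO and 66.7 and 89.7 for Jarid2 KO. It rose there in both knockouts (Ezh2 KO 1.77, SE 0.10, edgeR FDR 0.00101, with 0.866% of 15359 genes called higher; Jarid2 KO 0.83, edgeR FDR 0.0201, with 0.332%). In the stem gate it stood at 38.3 and 36.1, 50.6 and 54.8, and 49.9 and 50.7 CPM. Both knockouts lay above Control without overlapping it, by 0.54 for Ezh2 KO (edgeR FDR 0.0967, 0.0210% of 14299 genes called higher); 4 of the 6 fits that leave out 1 library called it (0.48 to 0.61). It also rose in Ezh2 KO in the CD48 high gates, by 1.49 with CD150 high (edgeR FDR 0.00825, 6.37% of genes higher) and 1.26 with CD150 low (edgeR FDR 0.00782, 5.11%); both calls were lost without Control replicate 2 (edgeR FDR 0.0710 and 0.0504).

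Igf2bp3 rose in Ezh2 KO in the gates that are CD48 high. In CD150 high CD48 high cells it stood at 4.90 and 7.55 CPM in Control, 66.2 and 25.9 for Ezh2 KO and 13.2 and 10.4 for Jarid2 KO (2.65, edgeR FDR 0.0152; lost without Control replicate 1, 2.00, edgeR FDR 0.0595). In CD150 low CD48 high CD135 low cells it stood at 13.0 and 9.33, 34.1 and 29.1, and 14.2 and 11.5 CPM (1.61, edgeR FDR 0.00352). B-like cells, described below, made up 11.3% and 0% of the CD150 high CD48 high gate in Control, 80.04% and 45.5% for Ezh2 KO and 2.08% and 3.64% for Jarid2 KO, and 26.4% and 9.42%, 57.2% and 36.8%, and 12.4% and 12.6% of the CD150 low CD48 high CD135 low gate. Outside B-like cells Igf2bp3 stood at 5.08 and 7.55 CPM in Control and 6.84 and 5.63 for Ezh2 KO in the first of these gates, and at 9.71 and 8.44 against 8.39 and 10.4 CPM in the other, so that the 2 genotypes overlapped. Hmga2 outside B-like cells stood at 23.9 and 29.6 CPM in Control against 126 and 122 for Ezh2 KO, and at 48.1 and 54.0 against 169 and 161 CPM. Igf2bp3 in the stem gate and in CD150 low CD135 high cells lay between 9.68 and 17.1 CPM in all libraries, with Ezh2 KO at 9.68 to 11.1. In CD150 low CD135 high cells Igf2bp3 in Jarid2 KO was higher than Ezh2 KO, by 0.56 (edgeR FDR 0.0212, 1.33% of genes higher), a call lost without either Ezh2 KO library or Jarid2 KO replicate 1 (edgeR FDR 0.0516 to 0.0748) and with pooled percentiles (0.51, edgeR FDR 0.0581). Lin28b in CD150 low CD48 high CD135 low cells stood at 0.329 and 1.28 CPM in Control, 2.30 and 5.56 for Ezh2 KO and 0.161 and 0.691 for Jarid2 KO, a rise in Ezh2 KO of 2.42 (edgeR FDR 0.0198) that was lost without either Control library or Ezh2 KO replicate 1 (2.16 to 2.82, edgeR FDR 0.0586 to 0.154) and with percentiles of the pooled cells (1.91, edgeR FDR 0.0938). Outside B-like cells it stood there at 0.331 and 1.30 CPM in Control and 1.34 and 2.45 for Ezh2 KO. Between this gate and the stem gate the Ezh2 KO difference of Igf2bp3 differed by 1.79 (edgeR FDR 0.000257), where 6.42% of genes were called.

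**Figure D3:**
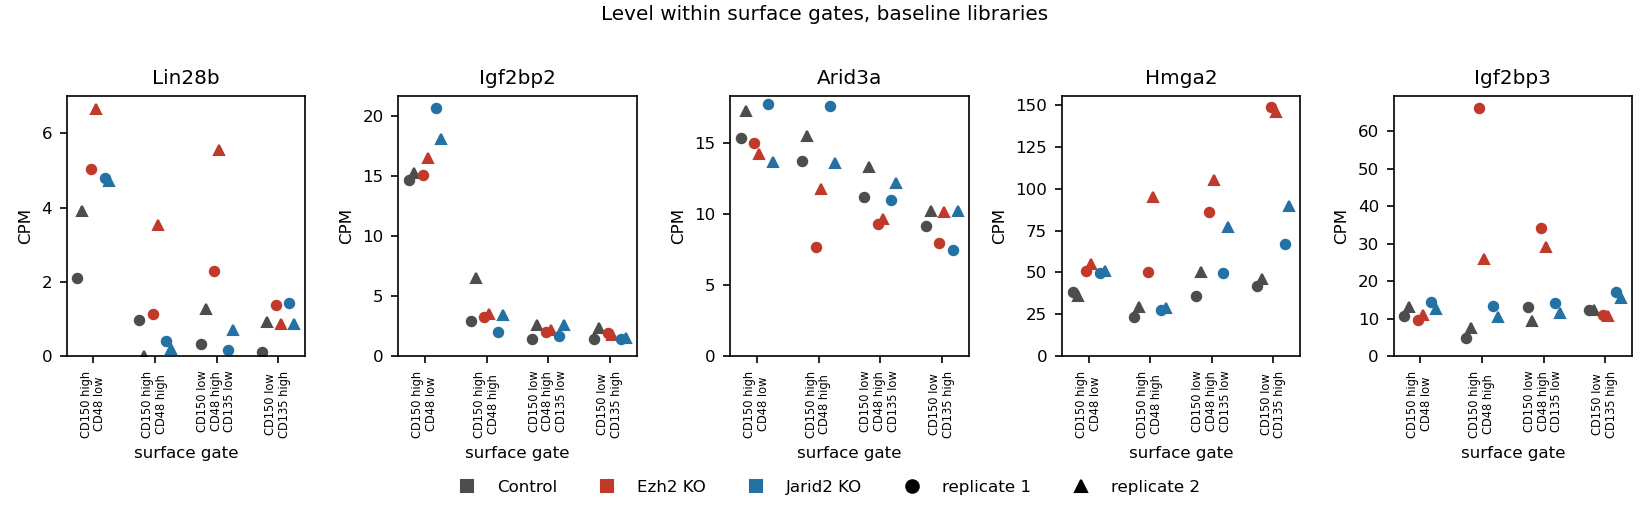
CPM of the members in the 4 surface gates of the 6 baseline libraries (1 point per library, coloured by genotype). Igf2bp2 and Lin28b are highest in the CD150 high CD48 low gate, while the Ezh2 KO points of Hmga2 lie farthest above Control in the CD150 low CD135 high gate (149 and 146 CPM). The points include B-like cells. Outside them Hmga2 stood at 169 and 161 CPM for Ezh2 KO and 48.1 and 54.0 in Control in the CD150 low CD48 high CD135 low gate.

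Cells were also grouped by transcript state, from clusters of the Control cells named "-like" by marker lists, with the members and the 2 targeted genes left out of the clustering. Hmga2 was widespread among progenitors and low in B-like cells. In Lymphoid-like cells, progenitors with Dntt, Flt3 and Il7r, its baseline levels were 60.2 and 52.4 CPM in Control, 206 and 192 for Ezh2 KO and 87.2 and 95.8 for Jarid2 KO. In HSC-like cells it stood at 36.5 and 45.5, 62.7 and 84.1, and 45.7 and 65.0 CPM. One of the 3 HSC-like clusters was led by interferon-induced genes. In B-like cells, which express Cd79a, Igll1 and Pax5, it stood at 2.07 and 1.12, 8.66 and 7.12, and 9.69 and 9.95 CPM. Ezh2 KO lay above Control in each of these states without overlap.

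At baseline Hmga2 was called higher in Ezh2 KO in HSC-like (0.86, edgeR FDR 0.000471), G1/S-like (1.56, edgeR FDR 0.000244), Lymphoid-like (1.85, edgeR FDR 2e-08) and Cycling-like cells (1.92, edgeR FDR 1.71e-05). In B-like cells both Control libraries lay under the filter's cutoff of 2.25 CPM, so Hmga2 passed there through the knockout libraries. Its B-like tests are given as values and not counted. For Ezh2 KO they were 2.22 (edgeR FDR 0.000893), and 1.33 (edgeR FDR 0.0188) with clustering resolution 0.6. Of all genes, 0.446% were called higher in HSC-like, 0.796% in G1/S-like, 1.06% in Lymphoid-like, 1.3% in Cycling-like and 7.32% in B-like cells. It was positive without a call in Erythroid-like (0.57, edgeR FDR 0.683) and Megakaryocyte-like cells (0.91, edgeR FDR 0.560). Jarid2 KO was also called higher in HSC-like (0.45, edgeR FDR 0.0138), G1/S-like, Lymphoid-like and Cycling-like cells. In B-like cells, with the same limit from the filter, its value was 2.49 (edgeR FDR 0.0470). The shares of genes called higher were 0.399% in HSC-like, 0.353% in G1/S-like, 0.885% in Lymphoid-like, 0.364% in Cycling-like and 0.0174% in B-like cells. Each of these Jarid2 KO results was lost in some setting. Those in B-like and Cycling-like cells were lost without either Jarid2 KO library. Those in G1/S-like and Lymphoid-like cells were lost without Jarid2 KO replicate 2, and that in HSC-like cells without either Control library or Jarid2 KO replicate 2. At clustering resolution 0.6 the B-like (1.58, edgeR FDR 0.304) and HSC-like (0.30, edgeR FDR 0.194) differences were not called. At resolution 0.6 the HSC-like difference in Ezh2 KO was 0.34 and not called (edgeR FDR 0.129). After transplantation Hmga2 was called higher in Ezh2 KO in HSC-like cells by 1.94 (11.2 CPM in Control, 39.7 and 50.4 for Ezh2 KO, edgeR FDR 0.00192). It was also called in Basophil or mast-like, G1/S-like, Cycling-like and Lymphoid-like cells. In Myeloid-like cells Control (0.553 CPM, 7 UMIs) lay under the filter's cutoff of 0.612 CPM, so Hmga2 passed through the knockout libraries. That test is given as a value and not counted: 4.03 (8.07 and 11.5 CPM for Ezh2 KO, edgeR FDR 0.00590). The shares of genes called higher were 0.3% (Basophil or mast-like), 0.631% (Myeloid-like), 0.645% (G1/S-like), 1.25% (HSC-like), 1.57% (Cycling-like) and 3.05% (Lymphoid-like). Leaving out Ezh2 KO replicate 2 ended the Basophil or mast-like call (2.86, edgeR FDR 0.0653). Jarid2 KO was called higher in Cycling-like (1.35, edgeR FDR 0.00930), G1/S-like (1.40, edgeR FDR 0.0491) and Lymphoid-like cells (1.47, edgeR FDR 0.0272), where 0.178%, 0.0408% and 0.0989% of genes were called. Leaving out Ezh2 KO replicate 2 ended the call in Cycling-like cells (edgeR FDR 0.0909), and that in Lymphoid-like cells was lost without Jarid2 KO replicate 2 (0.0584) and at resolution 0.6 (1.16, edgeR FDR 0.0957). The transplant G1/S-like cluster was led by Pf4, a platelet gene, beside its replication genes.

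**Figure D4:**
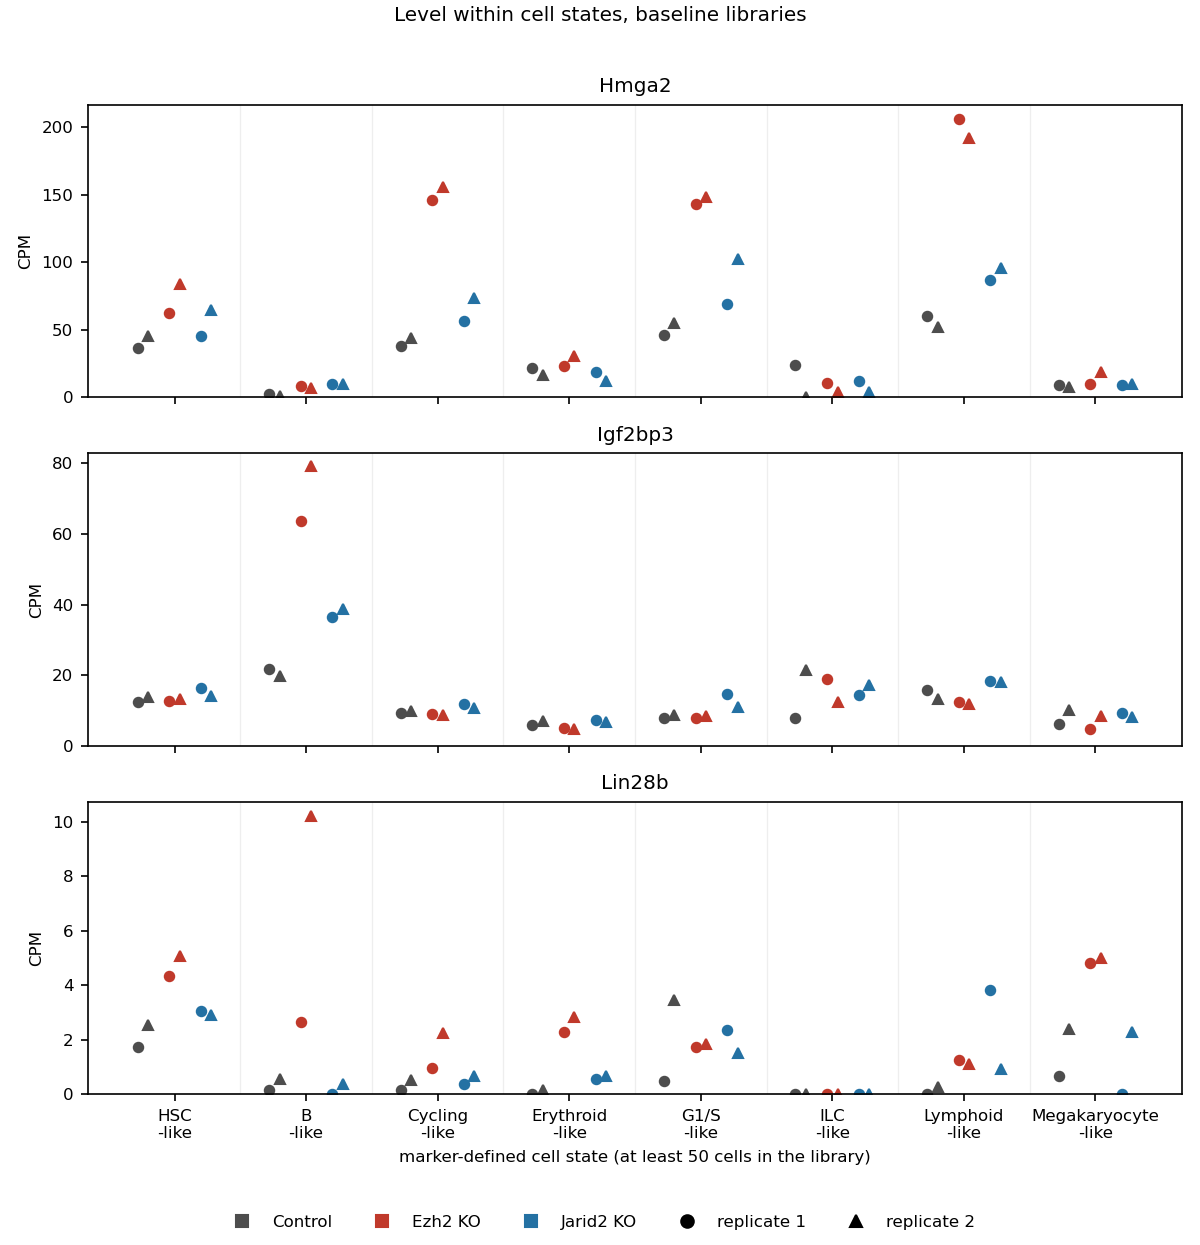
CPM of Hmga2, Igf2bp3 and Lin28b by transcript state in the 6 baseline libraries (1 point per library with at least 50 cells of that state). Among the states drawn Hmga2 is highest in Ezh2 KO Lymphoid-like cells (206 and 192 CPM), and Igf2bp3 stands out in Ezh2 KO B-like cells (63.8 and 79.1 CPM).

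Igf2bp3 differed by state in another way. In baseline B-like cells its levels were 21.8 and 19.7 CPM in Control, 63.8 and 79.1 for Ezh2 KO and 36.5 and 38.7 for Jarid2 KO, with no overlap between the groups. It rose in Ezh2 KO by 1.77 (SE 0.13, edgeR FDR 3.88e-06), the only one of 8 states in which it was called, and was lower in Jarid2 KO than in Ezh2 KO (-0.95, edgeR FDR 0.000326, 9.21% of genes called); Jarid2 KO against Control was not called (0.82, edgeR FDR 0.234). The B-like state held 2 clusters. In the larger one Igf2bp3 stood at 21.1 and 15.1 CPM in Control, 55.3 and 69.0 for Ezh2 KO and 35.1 and 33.4 for Jarid2 KO. The smaller one was a larger part of the state in Ezh2 KO (640 of 1835 and 380 of 1081 cells) than in Control (95 of 425 and 43 of 169) or Jarid2 KO (27 of 206 and 69 of 221). Igf2bp3 there reached 118 and 137 CPM for Ezh2 KO, against 30.9 and 73.6 CPM in the 1 Control and the 1 Jarid2 KO library with 50 cells of it. In HSC-like cells the libraries did not separate (12.4 and 13.9 CPM, 12.6 and 13.1, and 16.5 and 14.0; Ezh2 KO against Control -0.00, edgeR FDR 0.997). The Ezh2 KO difference of Igf2bp3 was larger in B-like than in HSC-like cells by 1.75 (SE 0.18, edgeR FDR 6.43e-21), a test added after the state values were seen, which called 8.92% of 14341 genes in either direction. The spread in this test is largely borrowed across genes, so so low an FDR does not measure the spread between these libraries. For Hmga2 the Jarid2 KO difference was larger in B-like cells (2.06, edgeR FDR 0.000166, 0.488% of genes called), against 12 and 2 Hmga2 UMIs in the Control B-like cells, and the call was lost without Control replicate 1 (2.55, edgeR FDR 0.401) and without the sex term (1.91, edgeR FDR 0.417).

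After transplantation the states with a rise were Lymphoid-like, at 3.82 CPM in Control, 14.4 and 20.1 for Ezh2 KO and 6.52 and 8.23 for Jarid2 KO (2.10, edgeR FDR 0.00937), and Myeloid-like, at 1.66, 12.6 and 16.2, and 4.28 and 3.81 CPM (3.02, edgeR FDR 0.00590). In HSC-like cells Ezh2 KO replicate 1 was below and replicate 2 above Control (3.42 and 9.28 against 7.76 CPM; -0.38, edgeR FDR 0.848). The Ezh2 KO difference of Igf2bp3 was larger than in HSC-like cells by 2.52 in Lymphoid-like (edgeR FDR 1.57e-06, 5.17% of genes called) and by 3.42 in Myeloid-like cells (edgeR FDR 2.09e-17, 3.89%), and its Jarid2 KO difference by 1.52 in Myeloid-like cells (edgeR FDR 0.0255, 0.476%), lost without either Jarid2 KO library (edgeR FDR 0.0625 and 0.0808). The Lymphoid-like state held 2 clusters, and the one led by Ly6d and Dntt had 1092 and 892 cells in Ezh2 KO against 196 in Control. Igf2bp3 stood at 3.88 CPM in Control and 18.7 and 25.8 for Ezh2 KO within it, and at 3.80 against 7.202 and 11.7 CPM within the other. With no B-like state set apart after transplantation, the part of B-like cells in these values was not tested. As at baseline, the spread in the tests between states is largely borrowed across genes, so their very low FDR do not measure the spread between these libraries.

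**Figure D5:**
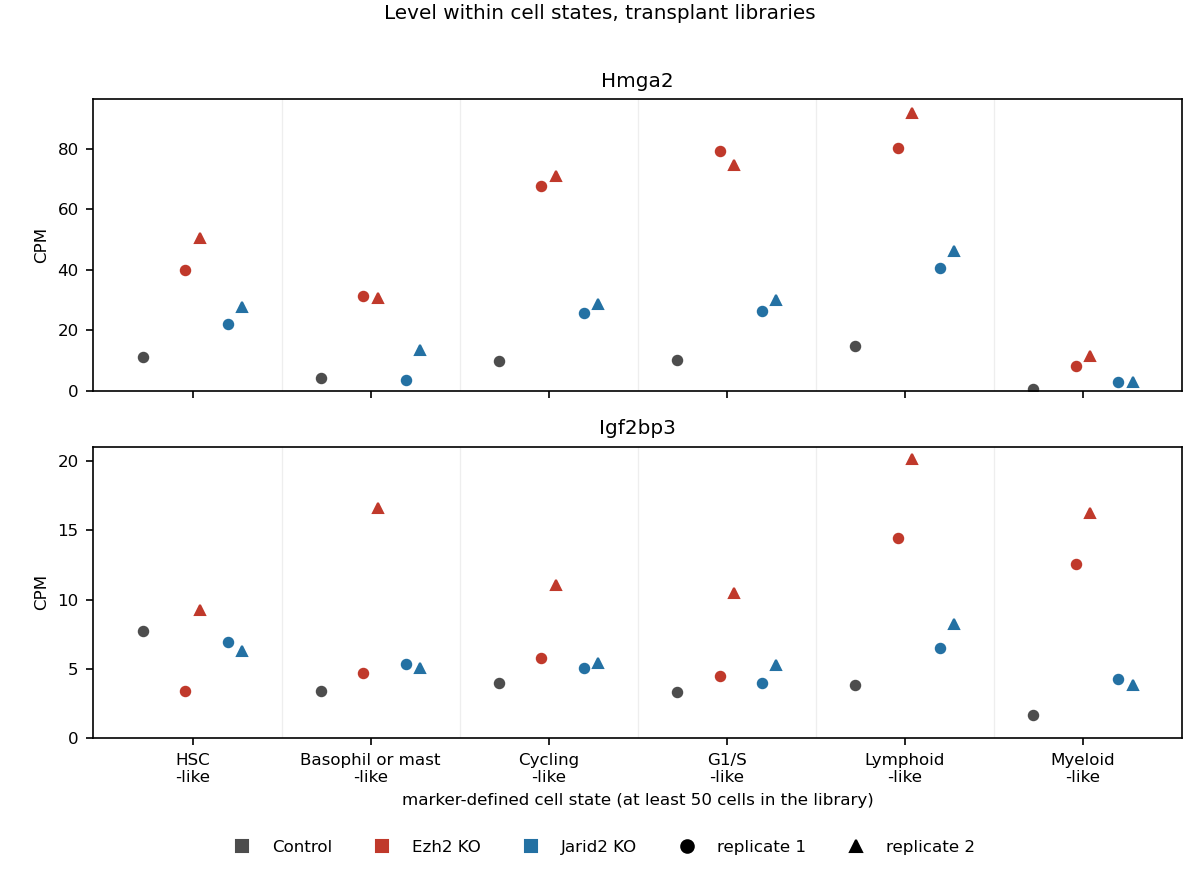
CPM of Hmga2 and Igf2bp3 by transcript state in the 5 transplant libraries (1 point per library with at least 50 cells). Ezh2 KO lies above Control for Hmga2 in every named state, and for Igf2bp3 in Lymphoid-like (14.4 and 20.1 against 3.82 CPM) and Myeloid-like cells (12.6 and 16.2 against 1.66 CPM).

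Lin28b at baseline stood higher in HSC-like than in B-like cells except in 1 Ezh2 KO library. In HSC-like cells it stood at 1.75 and 2.55 CPM in Control, 4.34 and 5.07 for Ezh2 KO and 3.06 and 2.93 for Jarid2 KO, without overlap between the groups and without a call (1.17 for Ezh2 KO, edgeR FDR 0.0565). In B-like cells it stood at 0.173 and 0.562 CPM in Control (1 UMI each), 2.66 and 10.2 for Ezh2 KO (63 and 119 UMIs) and 0 and 0.383 for Jarid2 KO. These cells held 22.4% and 31.3% of the Lin28b UMIs of the Ezh2 KO libraries against 18.7% and 10.2% of all their UMIs, and in Control 1.96% and 0.699% against 6.89% and 1.81%. In B-like cells Lin28b passed the filter through the Ezh2 KO libraries alone, so no test of it within that state is given. It was called higher for Ezh2 KO in Cycling-like cells (2.21, edgeR FDR 0.0287), a call lost without any 1 library (edgeR FDR 0.0575 to 0.222). ILC-like cells had no Lin28b UMI in any library. After transplantation HSC-like cells held 21 and 19 Lin28b UMIs in Ezh2 KO (1.38 and 1.46 CPM) and none in Control or Jarid2 KO.

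Igf2bp2 at baseline and Arid3a after transplantation marked states more than genotypes. Igf2bp2 stood at 10.3 to 13.6 CPM in baseline HSC-like and 7.29 to 22.9 CPM in Megakaryocyte-like cells, against 1.46 to 2.38 in Lymphoid-like cells. After transplantation it was not higher in HSC-like cells, at 1.38 to 2.61 CPM. It stood at 0.835 to 2.61 CPM in the Lymphoid-like clusters there and 2.09 to 7.19 in the Myeloid-like clusters. Among the named transplant states Arid3a was highest in Myeloid-like cells (35.6 to 43.2 CPM), above HSC-like cells (12.3 to 17.1 CPM). Neither had a call within any state.

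Shares of cells with a UMI depend on depth and on free RNA, and are given here as detection and not as the share that expresses a gene. Lin28b had a UMI in 0.565% and 0.994% of baseline Control cells, 1.71% and 2.67% for Ezh2 KO and 1.09% and 1.02% for Jarid2 KO. Cells with at least 1 Hmga2 UMI were 21.2% and 25.7% in Control, 35.1% and 38.4% for Ezh2 KO and 27.6% and 34.6% for Jarid2 KO, and 8.02%, 38.6% and 35.6%, and 19.02% and 19.4% after transplantation. With cells thinned to 5000 UMIs, and shallower ones left out (344 and 393 in Control, 632 and 721 for Ezh2 KO and 488 and 460 for Jarid2 KO at baseline, and 619, 273 and 385, and 708 and 352 after transplantation), the Hmga2 shares were 12.1% and 15.5%, 23.3% and 26.9%, and 17.2% and 21.2% at baseline, and 3.75%, 18.6% and 21.0%, and 8.53% and 9.27% after transplantation. Among baseline Control B-like cells, where the transcript is low, 1.65% and 0.592% had an Hmga2 UMI at median depths of 12517 and 9461 UMIs. Among the cells with any Hmga2 UMI, 65.3% and 63.3% in baseline Ezh2 KO held more than 1, against 45.6% and 47.5% in Control.

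Detection of Hmga2 and Igf2bp3 in the same cells is given with all states pooled, as a description. Among baseline Ezh2 KO cells thinned to 5000 UMIs, Igf2bp3 was detected in 5.03% and 4.77% of Hmga2-positive cells against 10.4% and 8.48% of the rest, while in Control the shares were 5.30% and 6.14% against 5.53% and 5.59%. Cells with Lin28b carried Igf2bp3 in 15.3% and 14.7% of cases in Ezh2 KO (72 and 116 cells) against 9.11% and 7.38% of the others, with exact 95% intervals of 7.88% to 25.7% and 8.78% to 22.4%. The mix of states moves with both comparisons, since B-like cells held 59.4% and 46.9% of the Igf2bp3 UMIs of these Ezh2 KO libraries, 1.60% and 0.654% of the Hmga2 UMIs and 22.4% and 31.3% of the Lin28b UMIs, and its part in them was not tested.

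Genes that act on let-7 itself had no call. Of 12 let-7 processing genes, which include the nucleases Drosha and Dicer1, the paralogue Lin28a, the uridylating enzymes Tut4 and Tut7 and the nuclease Dis3l2, 10 were tested at baseline and 11 after transplantation. None was called by edgeR in any contrast of either experiment or of the test between them. At an unadjusted p under 0.05, edgeR had 1, 0 and 3 of them in the 3 baseline contrasts, 1, 0 and 1 after transplantation and 0, 0 and 0 between the experiments, and DESeq2 called 0 in each. Of all genes 23.4%, 11.5% and 26.5% were under it at baseline, 17.1%, 8.34% and 26.4% after transplantation and 11.4%, 6.52% and 19.2% between the experiments. Their median difference in Ezh2 KO was -0.05 at baseline and -0.02 after transplantation, beside -0.0043 and 0.0070 over all genes tested.

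A few let-7 targets outside the 6 were called by edgeR. Of 20 listed, 19 were tested in each experiment, and 2 were called higher in Ezh2 KO in each, beside 2.81% of all genes at baseline and 3.4% after transplantation. E2f2, a cell cycle transcription factor, stood at 16.8 and 10.1 CPM in Control and 29.3 and 21.0 for Ezh2 KO (0.97, edgeR FDR 0.0305). The nuclear receptor gene Nr6a1 stood at 46.0 and 44.2 against 56.8 and 59.7 CPM (0.41, edgeR FDR 0.0268). B-like cells held 6.89% and 1.81% of all UMIs in the baseline Control libraries, 18.7% and 10.2% for Ezh2 KO and 3.41% and 2.71% for Jarid2 KO. Their part in the baseline values of E2f2 and Nr6a1 was not tested. After transplantation Nr6a1 (0.591 CPM in Control, 2.87 and 2.73 for Ezh2 KO; 2.16, edgeR FDR 0.00877) and the growth-promoting transcription factor Mycn (6.39 against 27.6 and 27.4 CPM; 2.03, edgeR FDR 0.000781) were called. Mycn was also called higher in Jarid2 KO in both experiments: 46.2 and 54.7 CPM against 27.3 and 29.1 in Control at baseline (0.86, edgeR FDR 0.0438) and 16.8 and 19.5 CPM after transplantation (1.45, edgeR FDR 0.0155). Of all genes 0.033% were called in the baseline contrast and 0.209% were called higher in the transplant contrast. At baseline Mycn was higher in Jarid2 KO than in Ezh2 KO (0.66, edgeR FDR 0.0140), and after transplantation lower (-0.58, edgeR FDR 0.00941), a change that the test between the experiments called (-1.23, edgeR FDR 0.000896). E2f2 and Nr6a1 were lower in Jarid2 KO than in Ezh2 KO at baseline (-1.16, edgeR FDR 0.0186, and -0.30, edgeR FDR 0.0328) and after transplantation (-0.59, edgeR FDR 0.0250, and -2.07, edgeR FDR 0.00204). Between the knockouts 4.42% of all genes were called lower and 1.49% higher at baseline, and 7.67% lower after transplantation. The test between the experiments also called Mycn (1.83, edgeR FDR 0.000772) and Nr6a1 (1.76, edgeR FDR 0.00782) in Ezh2 KO against Control, and Nr6a1 between the knockouts (-1.77, edgeR FDR 0.00126). The remaining targets had no call against Control by edgeR. DESeq2 called 3 of the 19 in baseline Ezh2 KO (7.38% of all genes) and 2 in baseline Jarid2 KO (1.38% of all genes). The list's median in Ezh2 KO was 0.07 at baseline and 0.03 after transplantation.

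Other fetal and adult stem cell genes had few calls against Control by edgeR. DESeq2 called 4 of 10 adult stem cell genes in baseline Ezh2 KO (7.38% of all genes) and 3 in baseline Jarid2 KO (1.38% of all genes). It called 1 fetal gene in Ezh2 KO in each experiment (5.72% of all genes after transplantation). Of 14 fetal and embryonic blood genes, 9 were tested at baseline and 6 after transplantation. Plagl1, an imprinted zinc finger gene, was the 1 called in Ezh2 KO against Control, higher at baseline (1.87, edgeR FDR 0.0483), where 2.81% of all genes were. It stood at 0.107 and 0.0916 CPM in Control against 0.324 and 0.385 for Ezh2 KO. The Control levels lay near the filter's cutoff of 0.103 CPM, so this value rests on few UMIs. In baseline Jarid2 KO 2 of the 9 were higher than in Ezh2 KO, beside 1.49% of all genes: Tal1, a blood transcription factor (69.1 and 71.0 against 47.5 and 57.6 CPM; 0.40, edgeR FDR 0.0328), and Dlk1 (1.90 and 1.86 against 0.609 and 0.911 CPM; 1.30, edgeR FDR 0.0375). The fetal serum protein gene Afp was lower in Jarid2 KO than in Ezh2 KO after transplantation (7.14 and 5.51 against 15.6 and 13.7 CPM, -1.17, edgeR FDR 0.0117). It was 1 of the 6 tested, beside 7.67% of all genes called lower. Of 10 adult stem cell genes, Egr1 was called higher in baseline Ezh2 KO (0.56, edgeR FDR 0.0350), where 2.81% of all genes were. After transplantation Mllt3 rose in Ezh2 KO (0.82, edgeR FDR 0.0252, 3.4% of genes called higher). Meis1 fell there by 0.60 (edgeR FDR 0.0393, 1.44% of genes called lower). In baseline Jarid2 KO against Ezh2 KO, 5 of these 10 were called higher and 0 lower, with a median of 0.28 beside 0.0069 over all genes; Hlf had the largest difference of the 5 (0.52, edgeR FDR 0.0171). B-like cells were 21.0% and 11.7% of the Ezh2 KO libraries and 2.83% and 3.14% of the Jarid2 KO libraries there, and their part in this was not tested. After transplantation 1 of the 10 was called higher in Jarid2 KO than in Ezh2 KO, beside 4.37% of all genes (Hlf, 0.42, edgeR FDR 0.0467). Called lower were 2, beside 7.67% of all genes: Mllt3 (17.7 and 18.96 against 32.2 and 40.1 CPM, -0.94, edgeR FDR 0.00379) and Egr1 (-0.69, edgeR FDR 0.0456). The Mllt3 difference changed between the experiments by the test (-1.22, edgeR FDR 0.00332).

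The genes whose levels ran most like those of the members over the 11 libraries, centred within each experiment, were ranked among 9393 genes. Nearest to Hmga2 were Bmpr1a, a bone morphogenetic protein receptor (Pearson r = 0.969), the chaperone partner Fkbp5 (0.969) and Glcci1 (0.951), with Igf2bp3 at rank 23 (0.909). Bmpr1a stood at 0.133 CPM in transplant Control, 9.31 for Ezh2 KO and 3.13 for Jarid2 KO (group means). Nearest to Igf2bp3 were Ddit4 (0.969), Mpp5 (0.959) and Xpr1 (0.949). Arid3a ran against Hmga2 (-0.547) and Igf2bp3 (-0.588). Lin28b and Igf2bp2 were under 5 CPM in every group and were not ranked. All points come from the same 11 libraries with the same genotype groups, so the values describe and do not test likeness.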

How the data were processed

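Single-cell 3′ gene-expression libraries of mouse KSL cells, 6 at baseline (with antibody counts) and 5 after transplantation, were analysed; the 6 H3K27me3 CUT&Tag samples of secondary transplants are not analysed here. The deposited files hold raw UMI counts per gene and cell, made with Cell Ranger 7.2.0 (baseline) and 6.1.2 (transplant) per the file headers; the submitters' processing notes name Cell Ranger 3.1.0, Seurat 3.0, Partek and mm10. Whether introns were counted, with which annotation and strand setting, is not given in the sources used here.

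Cells with at least 1000 UMIs, 500 genes and at most 10% mitochondrial UMIs were kept, and doublets were removed by score at 0.8% per 1000 cells, a rate chosen after the automatic threshold was seen. Control cells were clustered (scanpy 1.11.5, 2000 variable genes, 30 components, 15 neighbours, leidenalg 0.10.2, resolution 1), named from markers, and the other libraries' cells assigned by nearest neighbours; states under 50 cells were left out. Surface gates were percentiles of antibody counts within a library: CD150 high from 80, low to 70; CD48 low to 30, high from 50; CD135 high from 70, low to 50.

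Counts were summed per library and tested with edgeR 4.0.16 in R 4.3.3 (quasi-likelihood, TMM, filterByExpr, two-sided). The baseline fit has a sex term, which is also the replicate block: male libraries are replicate 1 and female libraries replicate 2, and same-sex deviations from the group means correlated at 0.598 to 0.777. Transplant numbers did not pair the libraries (-0.0252). The lone transplant Control is assumed to vary like the knockouts. Replicates differed beyond sampling noise (chi-square per degree of freedom 24.5 to 194). The scripts were tested on simulated data with known changes. Depth is given in the report; exact 95% intervals and floors of 3 UMIs cover counting error only. Alternatives were DESeq2 1.42.0, other scaling, count and cell filters, doublets kept, male cells, 1 library left out, other gates and clustering, and, added after values were seen, fits without B-like cells, male cells without a count filter, and differences between states.

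Named genes were the 6 members, the targeted genes, up to 4 called genes per list and contrast, and the 3 genes most correlated with each member of at least 5 CPM. The members and lists were chosen with earlier results of these data known. The genes ranked nearest to Arid3a are not reported here.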

Additional observations from a re-analysis of the deposited data

Results flagged for a closer look

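These results were picked out because a genotype difference itself differed between experiments, cell states or surface gates, by an edgeR interaction test over all genes. Between experiments (transplant minus baseline) they were the Ezh2 KO against Control difference of Hmga2 (1.34) and the Jarid2 KO against Ezh2 KO differences of Hmga2 (-0.65) and Lin28b (-8.20, fitted against libraries with no UMI and not read as a change).

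Between baseline B-like and HSC-like cells, the Ezh2 KO difference was larger in B-like cells for Igf2bp3 (1.75). The Hmga2 values of this test were 1.38 for Ezh2 KO (edgeR FDR 0.00236) and 2.06 for Jarid2 KO (edgeR FDR 0.000166). Both rest on 12 and 2 Hmga2 UMIs in the B-like cells of the Control libraries and are given as values only. The Jarid2 KO call was lost without Control replicate 1 and without the sex term (edgeR FDR 0.417). Leaving out Control replicate 1 (1.86, edgeR FDR 0.328), Ezh2 KO replicate 1 (1.30, edgeR FDR 0.120) or the sex term (1.27, edgeR FDR 0.0977) ended the Hmga2 call in Ezh2 KO. The Lin28b value of the same test (2.94, edgeR FDR 0.0115) rests on 1 UMI in each Control library of B-like cells, was not called without any one of the 4 Control and Ezh2 KO libraries or without the sex term (3.09, edgeR FDR 0.129), and is not read as a difference.

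After transplantation, Igf2bp3 had a larger Ezh2 KO difference in Lymphoid-like than in HSC-like cells (2.52, edgeR FDR 1.57e-06). Between Myeloid-like and HSC-like cells the differences of Igf2bp3 were 3.42 in Ezh2 KO (edgeR FDR 2.09e-17) and 1.52 in Jarid2 KO (edgeR FDR 0.0255, a call lost without either Jarid2 KO library). The Hmga2 value in Ezh2 KO was 2.07 (edgeR FDR 0.000891). It rests on 5 and 2 Hmga2 UMIs in the Myeloid-like clusters of the lone Control library and is given as a value only.

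Between the CD150 low CD48 high CD135 low gate and the CD150 high CD48 low gate, the Ezh2 KO difference was larger by 1.79 for Igf2bp3 (edgeR FDR 0.000257), 1.48 for Lin28b (edgeR FDR 0.0481) and 0.73 for Hmga2 (edgeR FDR 0.00553). Leaving out Ezh2 KO replicate 1 (0.49, edgeR FDR 0.0576) or the sex term (0.73, edgeR FDR 0.153) ended the Hmga2 call, and that of Lin28b without any one of the 4 Control and Ezh2 KO libraries. The share of B-like cells differs between these gates and genotypes, and its part in these 3 values was not tested.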

How the results depend on the processing

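Over the alternatives, results that answer a comparison kept their direction and side of the threshold, or moved within their spread, in 309 cases; in 82 a value or count moved further, in 39 a call was lost, in 2 one was gained and in 2 the sign changed. These follow, with those of single genes that changed sign, and their cause was not tested. Numbers of genes called are given in the order Ezh2 KO against Control, Jarid2 KO against Control, Jarid2 KO against Ezh2 KO; by the edgeR test they were 630, 6 and 1075 at baseline, 763, 53 and 1897 after transplantation, and 139, 4 and 878 for the test between experiments.

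Without the sex term (no replicate block) the baseline calls were 23, 1 and 80 and those between experiments 66, 0 and 465. Under it Hmga2 was at 1.44 (Ezh2 KO, edgeR FDR 0.0611) and -0.82 (between knockouts, edgeR FDR 0.0955) at baseline and 1.35 and -0.66 between experiments (edgeR FDR 0.0712 and 0.146), Igf2bp3 at 0.78 and -0.43 (edgeR FDR 0.0881 and 0.162), and Arid3a in Jarid2 KO at -7.0e-05. Without it the Ezh2 KO differences that compare B-like with HSC-like cells were also lost for Hmga2 (1.27, edgeR FDR 0.0977) and Lin28b (3.09, edgeR FDR 0.129), as were those that compare the CD150 low CD48 high CD135 low gate with the CD150 high CD48 low gate (0.73, edgeR FDR 0.153, and 1.32, edgeR FDR 0.282). With a replicate block over the 4 transplant knockout libraries Arid3a was at 0.38 (edgeR FDR 0.0799).

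DESeq2 called 1341 and 251 genes for the first 2 baseline contrasts, 196 for transplant Jarid2 KO and 355 and 81 between experiments; Lin28b was called at baseline (1.52) and Igf2bp2 between experiments was at 0.0069 (knockouts). With no filter on low counts the calls were 1004 and 52, 1170 and 209, and 311 and 27, with Igf2bp2 at 0.0037. With a mean of at least 10 CPM they were 387 for baseline Ezh2 KO, 162, 11 and 434 after transplantation and 63, 0 and 311 between experiments, and Arid3a was at 0.35 (edgeR FDR 0.0937). Without TMM the transplant calls were 1161 and 232, and Arid3a was at -0.016 (baseline Jarid2 KO), 0.058 (between experiments, Ezh2 KO) and 0.35 (edgeR FDR 0.130).

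With doublets kept Arid3a in baseline Jarid2 KO was at -0.016, Igf2bp2 between experiments at 0.043 and Igf2bp3 in Jarid2 KO between experiments at -0.031. With no cell filter these were -0.0079 for Arid3a and -0.20 for Igf2bp3, the calls between experiments were 237 and 1, and transplant Igf2bp3 was at 0.94 and -0.80 (edgeR FDR 0.142 and 0.0694). With the strict cell filter the transplant calls were 433 and 29, those between experiments 68, 0 and 459, and the values 3.80 for Lin28b (edgeR FDR 0.0675), 0.32 for Arid3a (edgeR FDR 0.110) and -0.014 for Igf2bp3 in Jarid2 KO between experiments. In male cells the transplant calls were 319, 7 and 1220, with Lin28b at 7.68 (fitted against a Control with no UMI), Igf2bp3 at 1.23, Hmga2 in Jarid2 KO at 0.98 and Arid3a at 0.37 (edgeR FDR 0.142, 0.134, 0.111 and 0.0889); with no count filter either, they were 1209 and 326. Without B-like cells the baseline calls were 57, 14 and 137. Igf2bp3 was then at -0.060 (Ezh2 KO against Control) and 0.39 (Jarid2 KO against Ezh2 KO), and Arid3a in Jarid2 KO at -0.0095.

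Log2 ratios of mean CPM plus 1, which understate differences of rare transcripts such as Lin28b, standardised to one mix of states were 0.35 for baseline Igf2bp3, 2.48 for transplant Hmga2 and 0.67 for transplant Lin28b, against 0.69, 2.71 and 0.61 unstandardised. Unthinned, the log2 ratio of Hmga2-positive shares in Ezh2 KO was 0.65 at baseline and 2.21 after transplantation, against 0.86 and 2.40 thinned. With pooled percentiles Lin28b in the CD150 low CD48 high CD135 low gate was at 1.91 (edgeR FDR 0.0938). Small values changed sign with pooled percentiles (Igf2bp3 in the CD150 high CD48 low gate, 0.046) and at resolution 0.6 (Lin28b in G1/S-like, 0.12; Igf2bp3 in transplant HSC-like, 0.14). Hmga2 in B-like cells was at 1.33 at that resolution (edgeR FDR 0.0188).

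Leaving out 1 library at a time, calls ranged from 100 to 560, 2 to 41 and 43 to 1168 at baseline, 467 to 1068, 62 to 134 and 1049 to 1953 after transplantation, and 45 to 132, 0 to 4 and 262 to 889 between experiments. Baseline Ezh2 KO values ranged from 1.04 to 2.14 for Lin28b, 0.69 to 0.86 for Igf2bp3 and -0.15 to 0.059 for Igf2bp2, and baseline values between knockouts from -0.95 to -0.72 for Hmga2 and -0.48 to -0.38 for Igf2bp3; Arid3a in Jarid2 KO ran from -0.092 to 0.10. After transplantation Lin28b in Ezh2 KO ran from 4.07 to 4.17, and between knockouts Igf2bp3 from -1.32 to -0.71 and Arid3a from 0.31 to 0.46. Between experiments the knockout difference ran from -0.77 to -0.53 for Hmga2, -8.72 to -7.57 for Lin28b and -0.18 to 0.15 for Igf2bp2, Igf2bp3 in Jarid2 KO from -0.061 to 0.13 and Arid3a in Ezh2 KO from -0.14 to 0.0074. Within states and gates, Igf2bp3 in Ezh2 KO ran from -0.31 to 0.014 in the CD150 high CD48 low gate, -0.18 to 0.14 in G1/S-like, -0.14 to 0.13 in baseline HSC-like, -1.22 to 0.16 in transplant HSC-like and -0.47 to 0.99 in ILC-like cells, and Lin28b from -1.06 to 1.99 in G1/S-like cells and -0.11 to 3.54 in the CD150 low CD135 high gate. Depth limits Lin28b and Igf2bp1: a library with no UMI cannot show how far below the floor the transcript lies.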

Other observations

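Some cells were named by no marker list. In 1 unnamed transplant cluster of shallow cells (median 2321 UMIs in Control) Igf2bp3 stood at 19.6 CPM in Control, from 5 UMIs in 104 cells, and 95.1 CPM in Jarid2 KO replicate 1, the latter from 24 UMIs in 101 cells. Hmga2 in an unnamed baseline cluster led by Fyb2 stood at 79.5 and 98.9 CPM in Control, 177 and 229 for Ezh2 KO and 113 and 171 for Jarid2 KO. Arid3a stood at 49.3 to 54.8 CPM in an unnamed baseline cluster led by immunoglobulin genes, in the 3 knockout libraries that held 50 such cells.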
